A study of Mus musculus with 2 samples.

Results

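The Mir34 family of the mouse consists of 3 microRNA (miRNA) genes, Mir34a, Mir34b and Mir34c. They were found among the 1973 genes of the deposited count tables by Ensembl gene identifier, matched to their names in GENCODE M21, and all 3 had counts in both libraries. The data are small RNA libraries from total RNA of skeletal muscle of the strain B6NCrl, taken on postnatal day 0. Replicate 1 came from pup 1 and replicate 2 from pup 2 of litter 1, sex was not recorded, and both belong to 1 untreated group, so no condition was compared. The labels name no single muscle, and the tissue was not sorted into cell types.

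MicroRNAs are short RNAs that bind messenger RNAs mainly through their seed, the bases at positions 2 to 8, and lower the output of those messages. Mir34a and the Mir34b-Mir34c pair are known as direct transcriptional targets of the tumour suppressor p53, and their products restrain the cell cycle and can promote cell death. Mir34a is transcribed from its own locus in many tissues, while Mir34b and Mir34c are made from 1 shared primary transcript and are known from testis, airway and other tissues with ciliated cells. In mice the Mir34b-Mir34c pair acts together with the Mir449 genes, which lie in Cdc20b and carry the same seed, in the formation of motile cilia. In muscle, miR-34c and miR-449 are known among the miRNAs that are raised during regeneration in dystrophic mice.

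The mature sequences are shown to set the members and their seed relatives beside each other. They come from RefSeq (GRCm38.p6, the same coordinates as mm10), in which all 3 members were found by symbol, and they run 5′ to 3′ with the seed in capitals.
mmu-miR-34a-5p: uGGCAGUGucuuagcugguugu
mmu-miR-34b-5p: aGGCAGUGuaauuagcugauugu
mmu-miR-449a-5p: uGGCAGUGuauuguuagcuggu
mmu-miR-449c-5p: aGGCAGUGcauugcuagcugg
mmu-miR-34a-3p: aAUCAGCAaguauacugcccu
mmu-miR-34b-3p: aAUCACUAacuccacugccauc
mmu-miR-34c-3p: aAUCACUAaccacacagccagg
The other arm of Mir34c is mmu-miR-34c-5p, which is known to carry the family seed. The sequences of mmu-miR-34c-5p and Mir449b were not analysed here, so the seed counts do not cover them.

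The seed GGCAGUG stood in 4 of the 1738 mature entries of that table, those of Mir34a, Mir34b, Mir449a and Mir449c. Read from the 5′ end without gaps, miR-34a-5p matched miR-449a-5p at 15 of 22 positions and miR-34b-5p at 11 of 22. However, miR-34b-5p has 23 bases and miR-34a-5p 22, and their shared bases after the seed are shifted against each other. The ungapped count understates their likeness, so these counts do not rank which sequence is closer to miR-34a-5p. The arms from the 3′ side divided the family differently. The 3p seed AUCACUA belonged to 2 entries, those of Mir34b and Mir34c, which matched at 17 of 22 positions, while the 3p seed AUCAGCA of Mir34a belonged to 1 entry. The count tables give 1 value per gene, so reads of the 5p and 3p arms were not separated. None of the 3 member hairpins shared an identical stretch longer than 11 bases with any of the 1004 other hairpins compared.

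Mir34a lies on chromosome 4 (mm10, chr4:150068454-150068555, plus strand). Its hairpin has no annotated host gene that contains it, and its last bases overlap the start of the unconfirmed transcript Gm37795 on the same strand. Mir34b (chr9:51103562-51103645, minus strand) and Mir34c (chr9:51103034-51103110, minus strand) are separated by 451 bases. Both lie opposite an intron of Btg4, a gene of the BTG antiproliferative family on the plus strand, and neither has a host gene on its own strand.

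The libraries held 3754895 counts in replicate 1 and 5133949 in replicate 2 on the genes' own strand, and all levels below are counts scaled by these totals to CPM. The tissue label was set against 9 of the 10 fixed muscle miRNA genes that the tables list. These summed to 81343 CPM in replicate 1 and 89366 CPM in replicate 2, with Mir206, a miRNA of skeletal muscle, at the first rank in both libraries. Mir206 alone held 79447 CPM in replicate 1 and 87198 CPM in replicate 2, so the sum mostly describes this gene. The other genes of the list had means from 773 CPM for Mir133b down to 1.12 CPM for Mir133a-2, with Mir1a-1 at 7.68 CPM. Mir1a-1, Mir133a-1 and Mir133a-2 belong to numbered gene copies. Reads that fit several copies would be left out of these counts as multimapping. Their values are therefore uncertain and do not give the level of the mature miRNAs. Of the 1973 genes, 1320 had 0 counts in both libraries and 311 had at least 10 counts in both.

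Mir34a and Mir34c were present at similar, moderate levels in newborn muscle, and Mir34b was far lower. The family summed to 995 counts in each library, a share of 0.0265% for replicate 1 (exact Clopper-Pearson 95% interval 0.0249 to 0.0282) and 0.0194% for replicate 2 (0.0182 to 0.0206). On the CPM scale this was 265 in replicate 1 and 193.8 in replicate 2. Intervals here cover counting error within a library only and leave out the spread between the pups. Molecular identifiers are not part of these tables, so amplified copies of a molecule were not told apart. Mir206 alone had 299.8 times the counts of the whole family in replicate 1 and 449.9 times in replicate 2. In bulk tissue a low level cannot be divided between few expressing cells and little RNA per cell.

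Mir34a, the member known from the widest range of tissues, had 512 counts in replicate 1 and 575 in replicate 2. Its level was 136 CPM in replicate 1 (exact Poisson 95% interval 125 to 149) and 112 CPM in replicate 2 (103 to 122), a mean of 124 ± 17.2 CPM (SD, n = 2). It ranked 163 in replicate 1 and 166 in replicate 2 among all 1973 genes. Among the genes with at least 10 counts in a library, 49.1% in replicate 1 and 49.4% in replicate 2 had a lower count than Mir34a. This placed it at the middle of the miRNA genes with at least 10 counts in both pups.

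Mir34c had 467 counts in replicate 1 and 403 in replicate 2. These were 124 CPM (113 to 136) in replicate 1 and 78.5 CPM (71.0 to 86.5) in replicate 2, with a mean of 101 ± 32.4 CPM (SD, n = 2) and ranks of 167 and 184. Mir34c therefore varied more between the pups than Mir34a did, and the order of these 2 genes was not separated by the spread. Mir34c in replicate 1 lay above Mir34a in replicate 2.

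Mir34b, the partner of Mir34c on the shared transcript, had 16 counts in replicate 1 and 17 in replicate 2. Its level was 4.26 CPM (2.44 to 6.92) in replicate 1 and 3.31 CPM (1.93 to 5.30) in replicate 2, a mean of 3.79 ± 0.672 CPM (SD, n = 2) and ranks of 295 and 299. Both values were below every value of Mir34a and Mir34c. No member had any count on the strand opposite the gene.

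**Figure D1:**
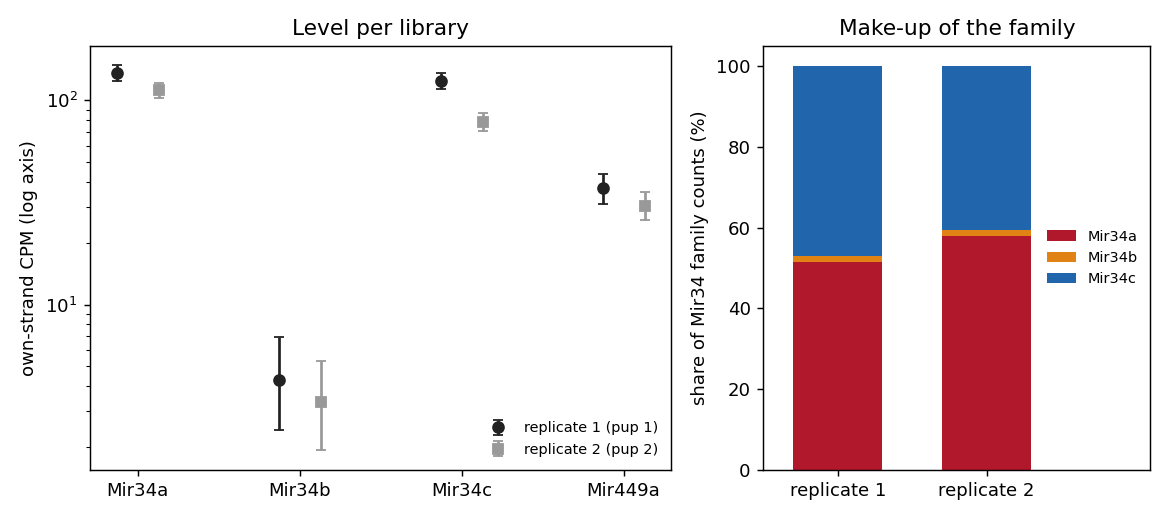
Left, own-strand CPM (log axis) of the 3 members and of Mir449a in replicate 1 (black circles) and replicate 2 (grey squares), with exact Poisson 95% intervals as bars. Right, the share of family counts (%) from each member. Mir34b sits near 4 CPM in both libraries, and Mir34a makes up 51.5% of family counts in replicate 1 and 57.8% in replicate 2.

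**Figure D2:**
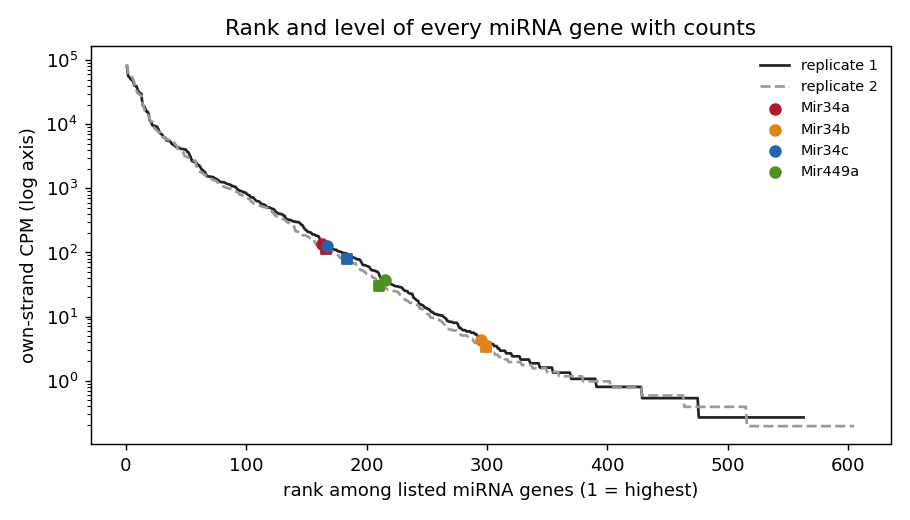
Own-strand CPM (log axis) against rank for all miRNA genes with counts, as lines for replicate 1 (solid) and replicate 2 (dashed). Circles (replicate 1) and squares (replicate 2) mark Mir34a at ranks 163 and 166, Mir34c at 167 and 184, Mir449a at 215 and 210 and Mir34b at 295 and 299.

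By a likeness rule on log2(CPM + 1) over both libraries, the genes nearest to Mir34a were Mir185 (144 CPM in replicate 1 and 126 CPM in replicate 2, distance 0.18) and Mir204 (122 and 124 CPM, distance 0.22). Nearest to Mir34c were Mirlet7a-1 (118 and 82.0 CPM, distance 0.10) and Mirlet7c-1 (110.0 and 80.1 CPM, distance 0.18). Nearest to Mir34b were Mir384 (4.53 and 3.51 CPM, distance 0.096) and Mir19b-1 (4.79 and 3.31 CPM, distance 0.14). The mature products of Mirlet7a-1, Mirlet7c-1 and Mir19b-1 are known to be made from further loci as well, so their gene counts are uncertain. With 2 libraries this likeness describes level and little else.

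Mir34a was set against the Mir34b-Mir34c pair within each library, where no scaling between libraries is needed. Of the family's reads, Mir34a supplied 51.5% for replicate 1 (exact Clopper-Pearson 95% interval 48.3 to 54.6) and 57.8% for replicate 2 (54.7 to 60.9). The pair held 483 counts or 129 CPM in replicate 1 and 420 counts or 81.8 CPM in replicate 2, nearly all of them from Mir34c. In replicate 1 the interval of Mir34a includes an even division with the pair, and in replicate 2 it lies above it. The ratio of Mir34a to the pair was 1.06 in replicate 1 and 1.37 in replicate 2, and its log2 averaged 0.27 ± 0.26 (SD, n = 2), so the excess of Mir34a was about as large as the spread between the pups.

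The order of Mir34a and the pair depends on the scale. Small RNA reads cover a mature miRNA from end to end, so the counts were compared as they are, and the hairpins differ in annotated length (102 bases for Mir34a, 84 for Mir34b and 77 for Mir34c). Divided by these lengths, the level of Mir34a was 134 CPM per 100 bases in replicate 1 and 109.8 in replicate 2, and that of Mir34c was 162 CPM per 100 bases in replicate 1 and 102 in replicate 2. Mir34b had 5.07 CPM per 100 bases in replicate 1 and 3.94 in replicate 2. On the per-length scale the log2 ratio of Mir34a to the pair was -0.32 in replicate 1 and 0.052 in replicate 2.

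The division of the family differed between the 2 libraries by more than counting error. The odds of a family read coming from Mir34a and not from the pair were lower in replicate 1 than in replicate 2, with an odds ratio of 0.774 (conditional 95% interval 0.646 to 0.928; two-sided Fisher's exact test, p = 0.00523, Benjamini-Hochberg adjusted over 5 splits 0.0131). Mir34a against Mir34c alone gave an odds ratio of 0.768 (0.640 to 0.923; Fisher's exact test, adjusted p = 0.0131). Mir34b against Mir34c gave 0.812, with an interval of 0.379 to 1.73 that allows a difference in either direction (Fisher's exact test, adjusted p = 0.746). These tests compare the reads of 2 libraries and say nothing of a condition. They cover counting error only, and 49.1% of all genes tested differed between these libraries beyond counting error. The split of Mir34b against Mir34c and the 2 splits with Mir449a were chosen after the values were seen.

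Within the pair, Mir34c exceeded Mir34b by a factor of 29.2 in replicate 1 (exact 95% interval 17.8 to 51.5) and 23.7 in replicate 2 (14.6 to 41.1). The share of Mir34b in the pair was 3.31% in replicate 1 (1.91 to 5.32) and 4.05% in replicate 2 (2.38 to 6.40). The intervals of the 2 libraries overlap widely, and both lie far from equality. On the per-length scale Mir34c was likewise above Mir34b in both libraries.

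For scale, the pair was placed among all miRNA gene pairs at most 1000 bases apart on the same strand in which each gene had at least 10 counts in total, a description chosen after the values were seen. There were 94 such pairs, and several share a gene or a cluster. Their median absolute log2 ratio was 2.24, a 4.73-fold difference, with quartiles of 1.03 and 4.41. Mir34c and Mir34b differed by 4.74 on this scale, and 22 of the 94 pairs (23.4%), the Mir34 pair included, were at least as unequal. Within 10000 bases it was 119 of 369 pairs (32.2%). The inequality of Mir34b and Mir34c was thus in the upper part of the range for close neighbours as counted. That range includes pairs with genes whose counts are uncertain, as said above. Pairs with Mir19b-1 reached 9.83, and a pair with Mirlet7c-1 stood at 8.58. The part of such uncertain counts in the range was not tested.

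**Figure D3:**
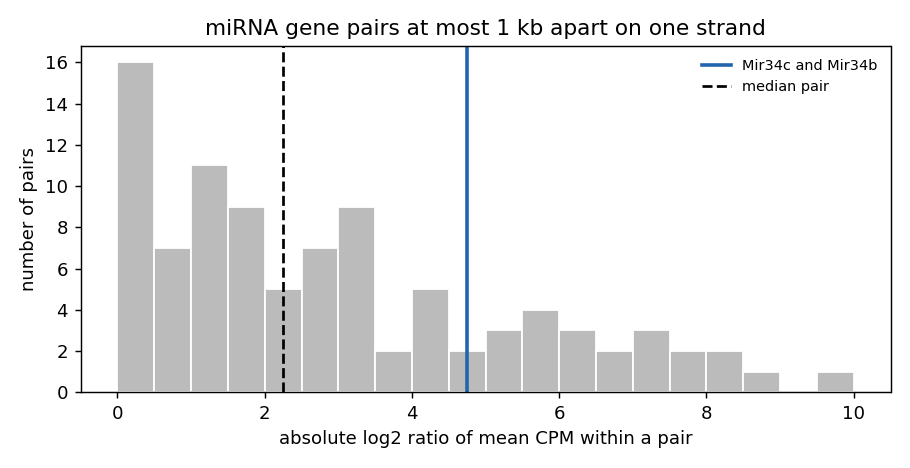
Number of same-strand miRNA gene pairs at most 1 kb apart (vertical axis) by the absolute log2 ratio of their mean CPM (horizontal axis). The solid line marks Mir34c and Mir34b at 4.74, to the right of the dashed median of 2.24.

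The seed relatives in Cdc20b added less than the family itself. Mir449a (chr13:113037534-113037624, plus strand, in an intron of Cdc20b) had 139 counts or 37.0 CPM in replicate 1 and 156 counts or 30.4 CPM in replicate 2, a mean of 33.7 ± 4.69 CPM (SD, n = 2). Mir449b and Mir449c, in the same host gene, had 0 counts in both libraries, for which a one-sided limit of 3 counts each was used. It equals 0.799 CPM for replicate 1 and 0.584 CPM for replicate 2. Together the Mir34 family and Mir449a had 302 CPM in replicate 1 and 224 CPM in replicate 2, of which Mir449a made up 12.3% (10.4 to 14.3) in replicate 1 and 13.6% (11.6 to 15.7) in replicate 2.

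Mir34a stood in nearly the same ratio to Mir449a in both pups, 3.68 in replicate 1 and 3.69 in replicate 2. The odds ratio of this split was 0.999, with an interval of 0.766 to 1.30 (Fisher's exact test, adjusted p = 1). Mir34c stood at 3.36 times Mir449a in replicate 1 and 2.58 times in replicate 2, an odds ratio of 1.30 with an interval of 0.989 to 1.71 that includes equality (Fisher's exact test, adjusted p = 0.0982).

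Each gene with at least 10 counts over both libraries was tested between the pups with an exact two-sided binomial test on TMM-scaled library sizes, and p-values were adjusted over all 373 genes tested. The test covers counting error only, and it was passed by 183 of 373 genes (49.1%), with 87 higher in replicate 1 (23.3%) and 96 higher in replicate 2 (25.7%). Of the 3 members 1 passed. Mir34c was higher in replicate 1, with a log2 ratio of 0.53, a fold of 1.45 (exact binomial test, adjusted p = 1.77e-07). Mir34a had a log2 ratio of 0.15 (adjusted p = 0.156, exact test) and Mir34b one of 0.23 (adjusted p = 0.827, exact test). Mir449a had 0.15 (adjusted p = 0.525, exact test).

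One passing member in 3 is near the background of 49.1%, so the count itself says nothing particular about the family. With at least 2-fold required as well, 19 of 373 genes were called (5.09%) and 0 of the 3 members. By size, 90 of the 373 tested genes (24.1%) had an absolute log2 ratio at least as large as that of Mir34c, 222 (59.5%) one as large as that of Mir34b and 273 (73.2%) one as large as that of Mir34a. Whether Mir34a passed depends on the scaling. With total-count scaling, which shifts every log2 ratio up by 0.13, its log2 ratio was 0.28 and passed (exact binomial test, adjusted p = 0.00307). It stayed below 2-fold and was not called. The passing genes were then 118 higher in replicate 1 and 64 higher in replicate 2. Over the other alternatives the adjusted p of Mir34a in the exact binomial test ran from 0.103 to 0.258.

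**Figure D4:**
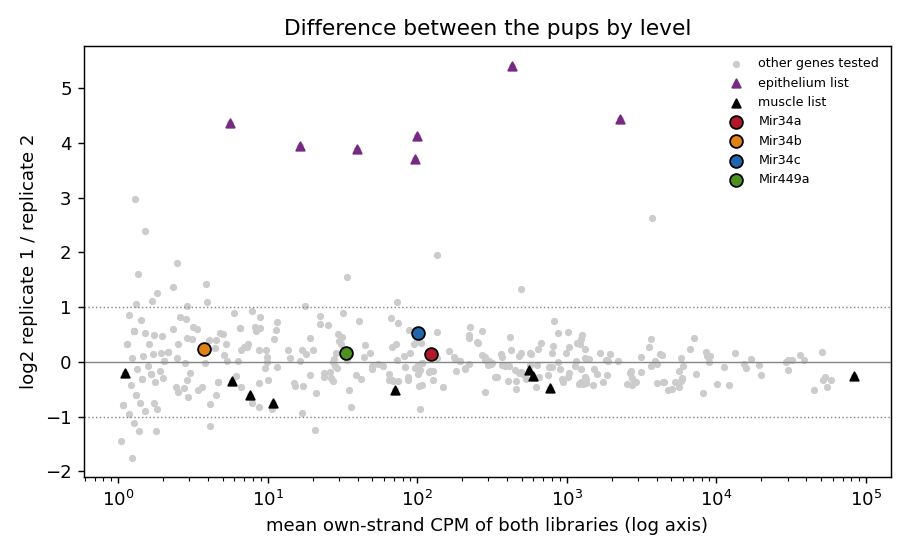
Log2 of replicate 1 over replicate 2 against mean CPM of both libraries (log axis) for the 373 genes tested. Dotted lines mark 2-fold. Mir34a (0.15), Mir34b (0.23), Mir34c (0.53) and Mir449a (0.15) lie between them, while the 7 epithelial genes (purple triangles) lie above 3 and the 9 muscle genes (black triangles) below 0.

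The epithelial markers and Mir140, the only gene of the cartilage list, also differed between the pups, in the same direction as Mir34c. All 7 genes of the epithelial list passed and were called higher in replicate 1, with log2 ratios of 3.71 to 5.42 and a summed level of 5688 CPM in replicate 1 and 229.7 CPM in replicate 2. The list is led by Mir203, a miRNA of the epidermis. The cartilage miRNA Mir140 had 6540 CPM in replicate 1 and 966 CPM in replicate 2. The blood list summed to 1002 CPM in replicate 1 and 699 CPM in replicate 2, led by the myeloid miRNA Mir223, with 2 of its 5 tested genes higher and 1 lower in replicate 1. The part of these markers in the difference of Mir34c was not tested.

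The muscle list ran the other way, with 6 of 9 genes lower in replicate 1, 0 higher and a median log2 ratio of -0.35, against -0.0059 over all 373 genes tested. The neural list, led by Mir128-1, summed to 1334 CPM in replicate 1 and 1572 CPM in replicate 2, with 2 of its 3 tested genes lower in replicate 1. Of its 8 listed genes 4, Mir9-2 and the 3 Mir124a genes, were at 0 in both libraries. The Mir9, Mir124a and Mir128 genes are numbered copies, and reads that fit several copies would be left out as multimapping. Their counts are therefore uncertain, and a count of 0 does not show that a mature miRNA was absent. In the list for multiciliated cells, which holds the 3 Mir449 genes, only Mir449a had counts, and it did not pass between the pups.

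Other miRNA genes linked to p53, several of them from work in human cells, were followed as a fixed list of 13, all listed in the tables. Of 12 tested, 5 were higher in replicate 1, 3 were lower and 4 did not pass, with a median log2 ratio of 0.33. Over all 373 genes tested, 23.3% were higher, 25.7% were lower and the median was -0.0059. The most abundant were Mir143, whose processing p53 is known to promote together with that of Mir145a, at 30088 ± 137 CPM, Mir22 at 15371 ± 658 CPM and Mir149 at 5049 ± 895 CPM (SD, n = 2 each). Mir107, Mir15a and Mir16-1, which restrain the cell cycle, were among those higher in replicate 1, with log2 ratios of 0.35, 0.42 and 0.52. Mir16-1 has a numbered copy, Mir16-2, and reads that fit both would be left out as multimapping, so its count is uncertain. The remaining 2 higher genes, Mir200c and Mir141, were the 2 called at 2-fold, with log2 ratios of 3.71 and 3.95, and both also belong to the epithelial list. Mir15a and Mir16-1 are separated by 54 bases, and Mir200c and Mir141 by 336 bases, so the 5 higher genes are not independent of each other. Mir143 had a log2 ratio of -0.14, Mir22 one of -0.044 and Mir149 one of -0.50, and these 3 were the lower ones.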

How the data were processed

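The members and gene lists were chosen with earlier results of these data known. The deposited values are read counts per miRNA gene on mm10 with annotation M4, made by the authors library by library, per the text deposited beside each table. Aligner and counter are not given in the sources used here. Column 1 of the 3 count columns equalled the sum of the other 2 in every gene. They were therefore read, from layout and totals, as either, own and opposite strand, and the own-strand column was used. The 4 leading lines stayed out of library sizes. Multimapping reads, 30.2% of all reads in replicate 1 and 29.9% in replicate 2, were among them. Of 1973 identifiers, 1894 matched GENCODE M21.

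CPM used own-strand totals. Between-library log2 ratios (replicate 1 over replicate 2) added 0.5 to each count and used edgeR 4.0.16 TMM factors (1.05 and 0.955). Exact binomial tests with Benjamini-Hochberg adjustment used a threshold of 0.05, and a call needed 2-fold as well. Intervals and Fisher's tests used scipy 1.17.1. The procedure was tested on simulated counts that held counting error only. That simulation had no spread between pups, so it cannot show how the test behaves with such spread. P-values measure only the difference between 2 libraries. Named genes were the members, genes sharing their 5p seed, the 2 nearest genes by level, the 3 most abundant and any called genes of the p53 list, and the leading gene of each marker list. Other named p53-list and muscle-list genes and the zero-count neural genes were named after their values were seen. Alternatives included DESeq2 1.42.0 size factors.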

Additional observations from a re-analysis of the deposited data

How the results depend on the processing

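Of 72 recomputed values, 61 counted as unchanged under the alternative tried, by a rule for each kind of value. Levels, ranks and ratios to the pair had to move by no more than the spread between the pups. Tested ratios had to keep their direction and whether they passed. Counts of genes had a wider margin, in which 13 called genes against 19 counted as unchanged. The share of neighbouring pairs had to stay within its exact binomial interval. Some values could not change, such as the ratio to the pair over both strands, since no member had opposite-strand counts. With all reads as the denominator, the mean levels were 64.8 CPM for Mir34a, 1.98 CPM for Mir34b and 52.96 CPM for Mir34c, because the denominator grows. The mean log2 ratio of Mir34a to the pair was 1.27 with the pair taken as a mean, 5.04 against Mir34b alone and -0.13 per annotated length. Taking the mean shifts the ratio by construction, while the value against Mir34b alone reflects the low counts of Mir34b. The value per length reflects the annotated lengths. The odds ratio between the pups was 0.946 against Mir34b alone (Fisher's exact test, p = 1), where 16 and 17 counts limit it. Leaving out each replicate in turn gave levels of 112 to 136 CPM for Mir34a, 3.31 to 4.26 CPM for Mir34b and 78.5 to 124 CPM for Mir34c, and log2 ratios to the pair of 0.084 to 0.45. With 2 libraries such values always lie within 1 SD of the mean, so they cannot show instability. Called genes ran from 13 to 22. Mir34c passed in every alternative, with log2 ratios of 0.53 to 0.66, also with epithelial and cartilage markers kept out of the TMM factors (0.55), a choice made after seeing the data, as was the 10 kb limit for neighbours. With a minimum of 50 counts Mir34b was not tested. No paired analysis was possible because the design holds 1 group.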
